A study of Drosophila melanogaster with 2 samples.

Results

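The genes described here are 10 selector and patterning genes of the Drosophila melanogaster legs, antennae and wings, namely hth, exd, Dll, dac, ap, vg, nub, salm, en and ci. The rule names them and uses no measured value, and they were taken from the 18164 annotated genes on the 6 main chromosome arms, of which 13945 were protein-coding. For each gene, all peak summits inside the gene or within 10 kb of it were taken from 4 deposited lists of anti-GFP ChIP-seq peaks. The study had 1 group, CG1663-eGFP whole pupae, with biological replicates 1 and 3. The flies carried a transgene that expresses CG1663, a protein the labels class as a transcription factor, with GFP at its C terminus. Males and females were pooled, and the age label is 24 hour. Neither the promoter that drives the fusion nor the line's background genotype is named in the labels. No untagged line was analysed here, so no background of the antibody could be subtracted beyond the control used in peak calling. The lists from replicate 1, replicate 3 and the pooled reads held 30000 peaks each, and the IDR-thresholded list held 9657, where IDR stands for irreproducible discovery rate. All 9657 were the peaks of highest signal in the pooled list, so a count in the IDR-thresholded list is a count of pooled summits with a signal of at least 170.2. The signal of a peak is the authors' own value from their peak caller, and ranks and signals are compared within 1 list only. The depth behind each peak is unknown, since the lists hold no reads. The lists hold no expression values either, so the labelled stage and tissue were not checked against marker genes. In whole animals, binding in few cells and weak binding in many cells cannot be told apart.

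Selector genes encode transcription factors that give a group of cells the identity of an organ or of a part of it. In the leg and antenna, hth and exd act in the proximal region, dac in the intermediate region and Dll in the distal region. Hth is a TALE-class homeodomain protein that brings its partner Exd, itself a cofactor of Hox proteins, into the nucleus. In the wing, ap selects dorsal identity, vg acts with Sd as the wing selector, nub encodes a POU-domain factor of the wing field, and salm encodes a zinc finger protein that responds to Dpp. The homeodomain protein En marks the posterior compartment, and Ci is the zinc finger effector of Hedgehog signalling in anterior cells. Genes of this kind are known for regulatory elements spread over introns and flanks, so a summit far from the start was counted as well as one at it.

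The DNA under 10 summits of hth, dac, nub and ci is shown first. For hth these are the 6 summits with a signal above the median of the IDR-thresholded list. For dac they are both strong upstream summits, and for nub and ci the strongest summit. The choice is partial and does not follow signal across the members. No window of Dll, vg or en is shown, although their highest signals, at 829, 770 and 718, were above the 483 of ci. Each window covers the summit and 50 bp to either side, on the plus strand of Release 6 (dm6), in the order of signal within each gene. Capitals mark a match to TGATNNAT, a consensus of Exd with a Hox protein, on either strand, or to TAATTA, a core that many homeodomain proteins bind. A match is a run of letters and not evidence that the factor binds there.
hth chr3R:10517971-10518071: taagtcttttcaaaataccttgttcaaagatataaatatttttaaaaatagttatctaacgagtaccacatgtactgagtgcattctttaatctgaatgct
hth chr3R:10533298-10533398: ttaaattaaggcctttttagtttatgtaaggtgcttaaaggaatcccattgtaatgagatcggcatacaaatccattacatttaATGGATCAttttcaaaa
hth chr3R:10634015-10634115: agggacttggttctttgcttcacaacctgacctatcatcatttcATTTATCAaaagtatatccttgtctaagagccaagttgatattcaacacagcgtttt
hth chr3R:10550209-10550309: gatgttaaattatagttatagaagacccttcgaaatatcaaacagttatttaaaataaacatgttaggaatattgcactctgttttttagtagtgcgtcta
hth chr3R:10530733-10530833: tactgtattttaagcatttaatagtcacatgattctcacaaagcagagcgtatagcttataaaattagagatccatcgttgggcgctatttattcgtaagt
hth chr3R:10630155-10630255: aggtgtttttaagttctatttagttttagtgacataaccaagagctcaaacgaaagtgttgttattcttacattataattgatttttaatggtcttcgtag
dac chr2L:16495333-16495433: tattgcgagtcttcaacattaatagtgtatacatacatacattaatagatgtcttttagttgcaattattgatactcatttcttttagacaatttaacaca
dac chr2L:16492700-16492800: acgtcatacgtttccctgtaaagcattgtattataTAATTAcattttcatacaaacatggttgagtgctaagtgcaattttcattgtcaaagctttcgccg
nub chr2L:12602321-12602421: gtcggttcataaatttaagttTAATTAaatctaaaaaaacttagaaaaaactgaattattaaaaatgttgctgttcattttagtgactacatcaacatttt
ci chr4:60472-60572: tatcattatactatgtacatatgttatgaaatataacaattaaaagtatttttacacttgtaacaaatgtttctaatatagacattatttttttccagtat
The 2 hth windows with capitals hold the Exd and Hox consensus, and the dac and nub windows with capitals hold the homeodomain core. The other 6 windows held none of the 10 motifs searched. Over the 10 windows the GC content lay between 18.8% in the ci window and 36.6% in the hth window at 10634065.

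Across the 10 genes, 42 IDR-thresholded summits were found, and 7 of the 10 genes had at least 1, beside 71.6% of all protein-coding genes. In the pooled list 9 of the 10 genes had a summit (83.6% of all protein-coding genes). The counts were 8 of 10 in replicate 1 (84.4%) and 10 of 10 in replicate 3 (84.5%). Of the 7 members with a body of at least 10 kb, 5 had an IDR-thresholded summit, beside 83.7% of the 1977 protein-coding genes of that length. These shares lay within 2 genes of the background, so having a summit did not set the genes apart. What differed among them was the number and place of the summits: hth held 23 of the 42, Dll 6, dac 5, nub 3, en 2, ci 2 and vg 1, while exd, ap and salm had none. The median over the members was 0.589 summits per 10 kb of gene and flanks, against 0.484 over all protein-coding genes and 0.643 over those of at least 10 kb. On the 9657 strongest peaks of each replicate, the members' median was 0.671 in replicate 1, against 0.478 over all protein-coding genes, and 0.820 in replicate 3, against 0.781. On these lists the members' median was thus above that of all protein-coding genes, by little in replicate 3. On the whole replicate 3 list it was not, at 2.239 for the members against 2.243. Between the strongest peaks of the replicates the members' median varied by an SD of 0.105 (n = 2). Over the 7 members of at least 10 kb the IDR-thresholded median was 0.496, below the 0.643 of all genes of that length.

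**Figure D1:**
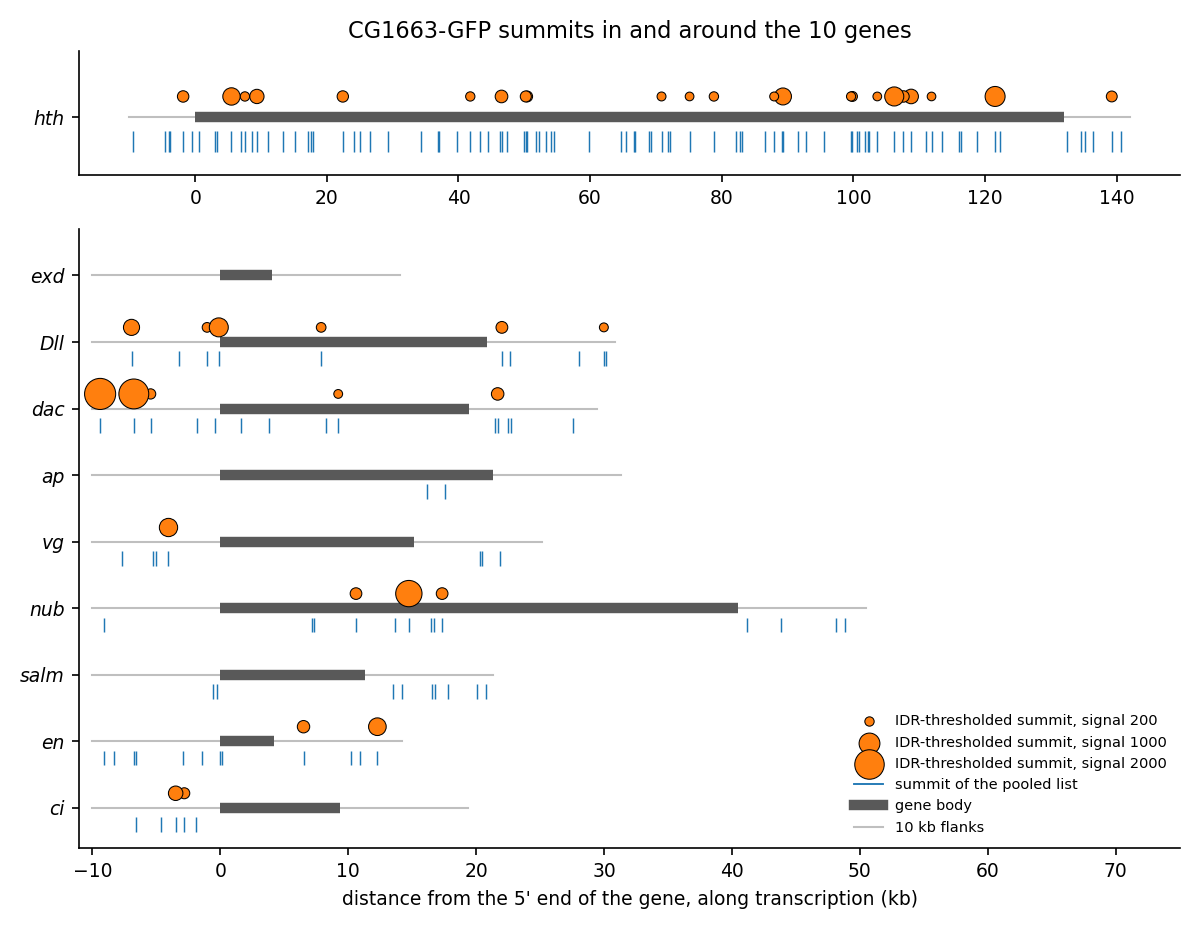
Positions of the summits along each gene, in kb from its 5′ end in the direction of transcription; orange circles are IDR-thresholded summits with an area in proportion to signal, blue ticks are summits of the pooled list, dark bars are gene bodies and grey lines the 10 kb flanks. hth, drawn on its own scale, carries 23 circles along its whole length, the largest circles are the dac upstream pair at 2228 and 2056, and exd, ap and salm have none.

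By place, 26 of the 42 summits (61.9%, exact 95% interval 45.6 to 76.4) lay in introns of the member, which make up 46.8% of the windows. A further 9 lay in upstream flanks, 6 in downstream flanks and 1 at a start, and none lay in an exon (exact upper limit 8.41%). Over all protein-coding genes, 15.8% of the 29961 pairs of a gene and a summit in its window were intronic, 11.7% were at a start and 0.651% were exonic, so a count of 0 in exons does not set the members apart. The intronic share of the members rested on hth: without it, 5 of 19 summits (26.3%) were intronic. The 46.8% of window length includes the introns of hth, so it is not the share to set beside this 26.3%. Intervals here cover counting error only, and summits of 1 gene are not independent of each other. The signal of the 42 summits ran from 172 to 2228 with a median of 301, below the median of 385 of the whole list, and their median percentile within the list was 37.6, against 50.2 for the summits in windows of all protein-coding genes.

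hth lies on the minus strand of 3R at 10507561 to 10639568 (FBgn0001235) and is 132.0 kb long, by far the longest member. Its window held 90 summits in replicate 1, 92 in replicate 3, 90 in the pooled list and 23 in the IDR-thresholded list. Among the 104 protein-coding genes with a body between 1/1.5 and 1.5 times as long, none had as many summits in replicate 1, replicate 3 or the pooled list, where the highest of them had 86. In the IDR-thresholded list 8 of the 104 had more than hth, the median of the 104 was 8 and 14 had none. Per 10 kb hth held 6.05 summits in replicate 3, 5.92 in replicate 1 and in the pooled list, and 1.51 in the IDR-thresholded list. The number of protein-coding genes that were denser was 786 in replicate 3, 436 in replicate 1, 593 in the pooled list and 2249 in the IDR-thresholded list. hth therefore stood higher in the lists that also hold weak peaks than in the IDR-thresholded list. On the 9657 strongest peaks of each replicate hth had 23 summits in replicate 1 and 16 in replicate 3 (19.5 ± 4.95, SD, n = 2). Among the 83 protein-coding genes of at least 100 kb, 6 held more IDR-thresholded summits than hth and 4 were denser, and the median of the 83 was 7 summits.

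The 23 IDR-thresholded summits of hth were spread along the gene. Of these, 21 were intronic, 1 lay upstream of the gene at 10641413, inside an exon of the antisense gene asRNA:CR44018, and 1 lay downstream at 10500291. Introns were counted as the gaps between merged exons from the 5′ end, and 10 of the 14 held at least 1 summit. The first intron (24.3 kb) held 4, introns 8, 9 and 10 held 3 each, introns 6 and 7 held 2 each, and introns 4, 5, 11 and 12 held 1 each. Intron 10, at 4.4 kb, was the densest of those with more than 1 summit, at 6.75 per 10 kb. Neighbouring summits were 201 to 20424 bp apart with a median of 3735 bp, and 2 gaps were under 500 bp. In genes of at least 100 kb, 76.2% of gene and summit pairs were intronic and 7.72% were at a start.

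The strongest hth summit stood at 10518021 in intron 12, 96255 bp from the nearest hth start, in a peak from 10517802 to 10518220. Its signal was 920 in the IDR-thresholded list (rank 1864), 594 in replicate 1 (rank 1691) and 336 in replicate 3 (rank 2164). The next was at 10533348 in intron 10, with 837 (rank 2124), 533 in replicate 1 (rank 1948) and 306 in replicate 3 (rank 2436). In the first intron the summit at 10634065 had 694 (rank 2637), 358 in replicate 1 (rank 3097) and 336 in replicate 3 (rank 2160), level there with the summit at 10518021. These summits ranked in the upper part of the list, whereas the median hth summit had a signal of 273, at percentile 32.1. The 2 annotated starts of hth had no IDR-thresholded summit within 500 bp. They had weak summits in the other lists: 119 and 112 in the pooled list (ranks 12519 and 13041), a highest of 75.1 in replicate 1 and of 66.7 in replicate 3. For 8 of the 23 summits the nearest annotated start was that of hth itself, while mir-4944, nested in the gene, was nearest to 11, asRNA:CR44018 to 3 and lncRNA:CR45576 to 1.

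Outside the members and the 50 other patterning genes, the genes most like hth in density and highest signal were Apc, Mad and ths. They lay nearest to hth in summits per 10 kb and in the log of the highest signal. Each measure was scaled by its SD over the 1655 protein-coding genes of at least 10 kb with an IDR-thresholded summit. The members and the 50 were then left out, and the nearest of the rest were taken. Apc (12.4 kb) held 5 summits at 1.54 per 10 kb with a highest signal of 932, at a distance of 0.0404 SD. Mad (13.6 kb) held 5 at 1.49 per 10 kb with a highest of 940 (0.0407 SD). ths (57.6 kb) held 11 at 1.42 per 10 kb with a highest of 915 (0.130 SD). Mad differed from hth in that its highest signal was at its own start.

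exd, the partner of hth, was the opposite case. It is a gene of 4.0 kb on the plus strand of X (15992468 to 15996509, FBgn0000611), and its window held no summit in the IDR-thresholded list, the pooled list or replicate 1. Replicate 3 alone held 4, with signals of 72.0, 65.8, 59.7 and 29.6. All of these lay within 500 bp of a start of another gene (ND-20, vap, and eIF5 with CG46312), and the pair at 59.7 and 29.6 also lay 288 and 26 bp from an exd start. Among 2864 protein-coding genes of similar length, 717 had no IDR-thresholded summit either.

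Dll and dac, of the distal and intermediate leg, had summits outside the gene body more than inside it. Over all protein-coding genes, 35.1% of gene and summit pairs lay in upstream flanks and 36.8% in downstream flanks. Only 1977 of those 13945 genes have a body of at least 10 kb, so most of their windows hold a larger share of flank. The windows of Dll and dac were 40.8 and 39.5 kb, with 10 kb of flank on each side. Whether Dll and dac stand apart from genes of their own length in this was not tested. Dll (plus strand of 2R, 24814822 to 24835667, 20.8 kb, FBgn0000157) held 6 IDR-thresholded summits, 1.47 per 10 kb, with 10 in replicate 1 and 9 in replicate 3. It was the only member with an IDR-thresholded summit within 500 bp of a start, at 24814713, 109 bp upstream, in a peak from 24814520 to 24814912. That summit had a signal of 829 (rank 2144), 262 in replicate 1 (rank 4262) and 561 in replicate 3 (rank 1104), so it stood far higher in replicate 3. The sequence within 50 bp of it had a GC content of 70.3%, the highest of the 42. A second Dll summit, 6932 bp upstream, had a signal of 598 (rank 3091), and the gene nearest to it was CG42851, 1435 bp away. The remaining 4 were weaker: 217 at 1026 bp upstream, 215 in intron 3 at 7892 bp downstream of the start, and 320 and 182 in the downstream flank. Of 828 protein-coding genes of similar length, 155 held more summits than Dll, and the median of the 828 was 3.

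dac (minus strand of 2L, 16466512 to 16485998, 19.5 kb, FBgn0005677) held the strongest summits of all members. The summit at 16495383, 9385 bp upstream of the start, had a signal of 2228 (rank 452), 1195 in replicate 1 (rank 559) and 1035 in replicate 3 (rank 342). The one at 16492750, 6752 bp upstream, had 2056 (rank 538), 1124 in replicate 1 (rank 626) and 936 in replicate 3 (rank 440). Both lay in introns of the neighbouring gene Tpr2, whose starts were 1386 and 1210 bp away, so they lay nearer to Tpr2 than to dac. Another upstream summit, at 242, lay 105 bp from a Tpr2 start. Within dac itself the single IDR-thresholded summit, in intron 3, had a signal of 179 (rank 9318) and no match in replicate 3, and 1 summit of 360 lay downstream. At the dac start the signals were 117 in the pooled list, at most 64.5 in replicate 1 and 62.1 in replicate 3. With 1.27 summits per 10 kb, dac was surpassed by 211 of 870 genes of similar length in number of summits.

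Of the 4 wing genes, nub had as many IDR-thresholded summits as the median gene of its length, vg had fewer, and ap and salm had none. nub (plus strand of 2L, 12587625 to 12628135, 40.5 kb, FBgn0085424) held 3 IDR-thresholded summits, all in its second intron of 19.0 kb. The strongest, at 12602371, lay 14746 bp from a nub start and had a signal of 1596 (rank 864), 929 in replicate 1 (rank 892) and 683 in replicate 3 (rank 816). The summits beside it, at 12604972 and 12598240, had 315 and 313. nub had no summit within 500 bp of a start in any of the 4 lists. Of 521 genes of similar length, 259 held more summits than nub, and the median of the 521 was 3.

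vg (plus strand of 2R, 12884201 to 12899385, 15.2 kb, FBgn0003975) held 1 IDR-thresholded summit, at 12880086, with a signal of 770 (rank 2334), 465 in replicate 1 (rank 2310) and 307 in replicate 3 (rank 2420). It lay 4115 bp upstream of vg but 144 bp from a start of Nmda1, within introns of Nmda1 and AspRS. At vg's own starts the single summit in any list was one of 76.4 in replicate 3. Of 1048 genes of similar length, 671 held more summits.

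ap (minus strand of 2R, 5706202 to 5727525, 21.3 kb, FBgn0267978) and salm (minus strand of 2L, 11434311 to 11445614, 11.3 kb, FBgn0261648) had no IDR-thresholded summit, as had 130 of 815 (16.0%) and 227 of 1209 (18.8%) genes of their lengths. ap differed between the replicates: 0 summits in replicate 1 and 9 in replicate 3, of which the highest, at 114.7 and 82.9, lay 62 and 261 bp from a start of Cndp2. The 2 pooled summits of ap were intronic, at 96.5 and 35.2. salm had 11 summits in replicate 1, 6 in replicate 3 and 9 in the pooled list, where the medians of the 1209 genes of its length were 6, 8 and 6 in that order. Its highest were 119 in replicate 1 (rank 8327), 59.9 in replicate 3 (rank 12568) and 151 in the pooled list (rank 10565), which is just under the lowest IDR-thresholded signal of 170.2. Among the strongest 9657 peaks of replicate 1, salm had 2 summits, against 0 among those of replicate 3.

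en and ci, of the posterior and anterior compartments, had 2 IDR-thresholded summits each, none of them in the gene, and 2 was also the median for genes of either length (935 of 2791 held more than en, and 595 of 1419 held more than ci). en (minus strand of 2R, 11524006 to 11528210, 4.2 kb, FBgn0000577) had both in its downstream flank. The one at 11515924, 11959 bp from the nearest en start, had a signal of 718 (rank 2549), 421 in replicate 1 (rank 2594) and 290 in replicate 3 (rank 2613). The other, at 11521697, had 354 (rank 5246), 185 in replicate 1 (rank 5759) and 166 in replicate 3 (rank 4824). Both en summits thus had close ranks in the replicates. In the pooled list en held 12 summits, 4.96 per 10 kb, second to hth among the members, and 1226 of the 13945 protein-coding genes were denser. At the en starts weaker summits were listed, with highest signals of 139 in the pooled list, 57.6 in replicate 1 and 83.1 in replicate 3.

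ci (minus strand of chromosome 4, 47710 to 57041, 9.3 kb, FBgn0004859) had both of its summits upstream, at 60522 and 59849, in an intron of the antisense gene asRNA:CR43957. The one at 60522 had a signal of 483 (rank 3842), 298 in replicate 1 (rank 3768) and 196 in replicate 3 (rank 4012), and the one at 59849 had 279 (rank 6450), 197 (rank 5448) in replicate 1 and 92.5 (rank 8764) in replicate 3. Chromosome 4 is small and held only 11 IDR-thresholded peaks, among which the ci summits were the third and ninth by signal. The replicates differed here: the ci window held 3 of the 24 peaks on chromosome 4 in replicate 1 and 12 of 94 in replicate 3. A summit 68 bp from a ci start, with a signal of 156 (rank 5187), was in replicate 3 only.

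**Figure D2:**
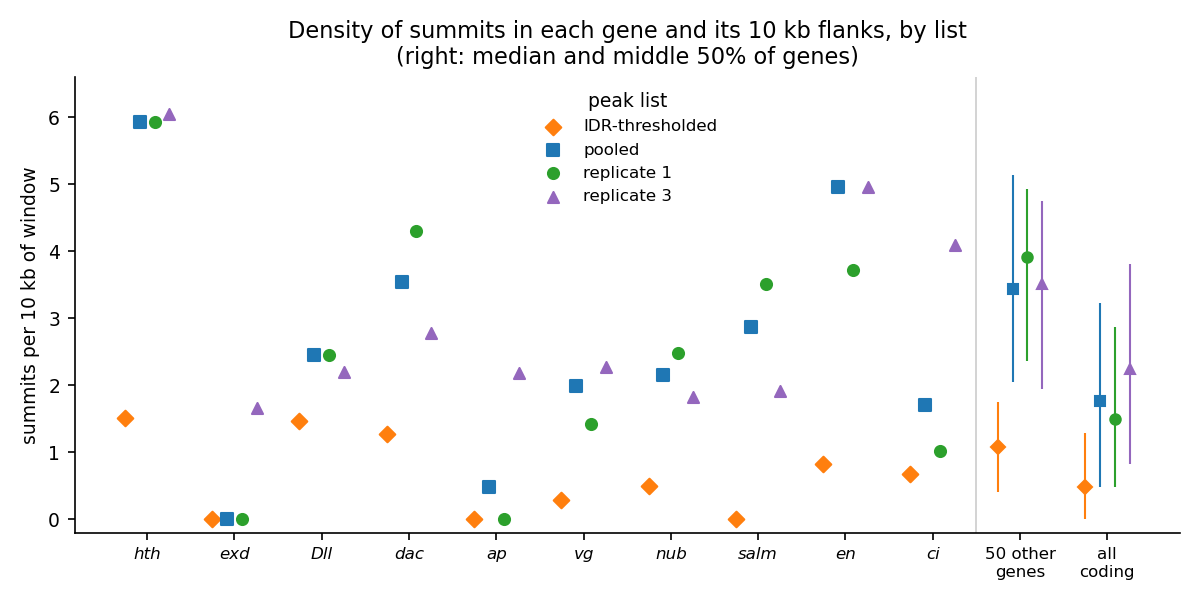
Summits per 10 kb of gene and flanks for each of the 10 genes in the 4 peak lists, with the median and the middle 50% of genes for the 50 other patterning genes and for all protein-coding genes at the right. hth stands near 6 in the 3 lists of 30000 peaks and at 1.51 in the IDR-thresholded list. ap, exd, ci, vg, en and, by little, hth stand higher in replicate 3 than in replicate 1, whereas dac, salm, nub and Dll stand lower.

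At transcript starts most members' summits were weak, the exceptions being Dll and, in replicate 3 only, ci. In the IDR-thresholded list 1 of the 10, Dll, had a summit within 500 bp of a start, beside 21.5% of all protein-coding genes, and of the 7 members of at least 10 kb it was again 1, beside 38.4% of such genes. That count moved with the replicate: on the 9657 strongest peaks of each, it was 1 of 10 in replicate 1 (Dll), beside 18.6% of all protein-coding genes, and 3 of 10 in replicate 3 (Dll, en and ci), beside 26.7%. With 10 genes these counts lay near the background. In the longer lists the count was 4 of 10 in replicate 1 (hth, Dll, dac and en), where the background was 31.3%, and 8 of 10 in replicate 3, where the background was 45.1%. The 2 members without one in replicate 3 were ap and nub. Over the members with a start summit, the median of the highest signals at the starts was 69.8 in replicate 1 (percentile 59.0) and 71.6 in replicate 3 (percentile 63.4). Over all protein-coding genes with a start summit the medians were 140 in replicate 1 (percentile 75.5) and 102 in replicate 3 (percentile 73.3). The replicate 3 list held start summits for exd, vg, salm and ci that replicate 1 did not hold.

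Most of the members' summits had a match in both replicates. The IDR-thresholded list was derived from both and holds the strongest pooled peaks, so a high share was partly set by that choice. Of the 42, 40 had a summit within 100 bp in both replicate lists (95.2%, exact 95% interval 83.8 to 99.4), beside 8863 of the 9657 summits of the whole list (91.8%). The exceptions were the hth summit at 10589137, which had no match in replicate 1 and lay 201 bp from its neighbour, and the dac summit in intron 3. Of the 40, 26 ranked higher in replicate 1 and 14 in replicate 3, and 36 ranks were within 2-fold of each other. Over the whole list 60.3% ranked higher in replicate 1 and 93.9% were within 2-fold. For hth 15 of 22 ranked higher in replicate 1. The Dll start summit was the member summit that most favoured replicate 3.

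**Figure D3:**
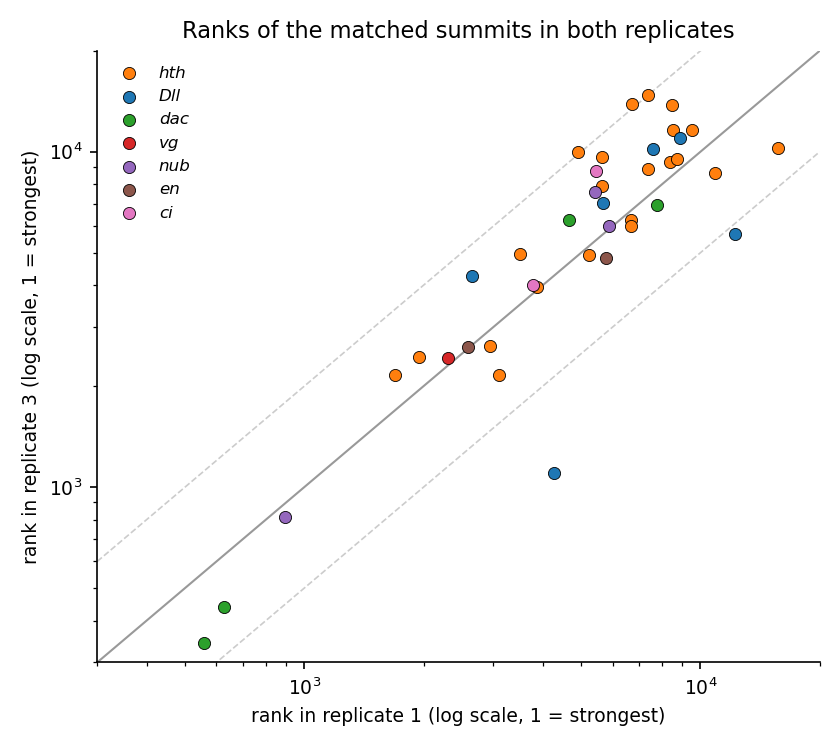
Rank of each matched member summit in replicate 1 (x axis) and replicate 3 (y axis), both on log scales with 1 the strongest; colours are genes, the solid line is equal rank and the dashed lines are 2-fold differences. The 2 strongest dac summits and the strongest nub summit lie at the strong end, 36 of the 40 points are inside the dashed lines, and the Dll start summit, at ranks 4262 and 1104, lies below them.

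The wider set of appendage genes was given by a list of 50 other wing, leg, antenna, eye, compartment and morphogen genes. Of these, 44 had an IDR-thresholded summit in the window and 10 had one at a start, and of the 30 with a body of at least 10 kb the counts were 27 and 6. Over all protein-coding genes the shares were 71.6% and 21.5%, and 83.7% and 38.4% for a body of at least 10 kb. The 10 of 50 with a start summit were thus near the share of all genes. The 6 of 30 lay below the share of genes of at least 10 kb. In the other lists 47 had a summit in the pooled list (83.6% of all protein-coding genes), 46 in replicate 1 (84.4%) and 47 in replicate 3 (84.5%). Their median density was 1.08 per 10 kb, above the 0.589 of the 10 members and the 0.484 of all protein-coding genes. For a body of at least 10 kb it was 0.867, against 0.496 for the members and 0.643 for all protein-coding genes. On the 9657 strongest peaks the median of the 50 was 1.02 in replicate 1, against 0.478 of all protein-coding genes, and 0.903 in replicate 3, against 0.781. The list was chosen with earlier results of these data known, so its density is a description only. The densest in the IDR-thresholded list were ptc, which encodes the Hedgehog receptor, with 16 summits and 4.50 per 10 kb, followed by sob (9 summits, 3.95), brk, which encodes a repressor of Dpp targets (8, 3.45), fng, which encodes a modifier of Notch (12, 2.75), btd (6, 2.57) and Ser, which encodes a Notch ligand (10, 2.37). hth held more summits than any of the 50 in each of the 4 lists. The number of the 50 that were denser than hth was 17 in the IDR-thresholded list, 6 in the pooled list, 7 in replicate 1 and 5 in replicate 3. The highest signals at starts in the list were 909 at so, 773 at dan, 333 at sob and 266 at caps, so that the Dll start signal of 829 lay between so and dan. At the starts of the 50 genes, 35 had a summit in replicate 1, beside 31.3% of all protein-coding genes, with a median signal of 62.8 (percentile 56.1). In replicate 3 the count was 40, beside 45.1%, with a median signal of 57.8 (percentile 56.8). B-H1, danr, ey, salr, tio and toy had no IDR-thresholded summit, and salr lies beside salm, which had none either.

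The member summits were AT-rich, as were those of the whole list. The median GC content within 50 bp of a summit was 30.7% for the members (12.9 to 70.3) and 29.7% for all IDR-thresholded summits. In windows 1000 bp to each side it was 43.6% for the members and 41.6% for all. Of the 42 member summits, 34 had a lower GC content than the mean of their own side windows. The dip was narrow: the members' median GC content was 46.0% at 200 bp before the summit and 45.0% at 200 bp after it.

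**Figure D4:**
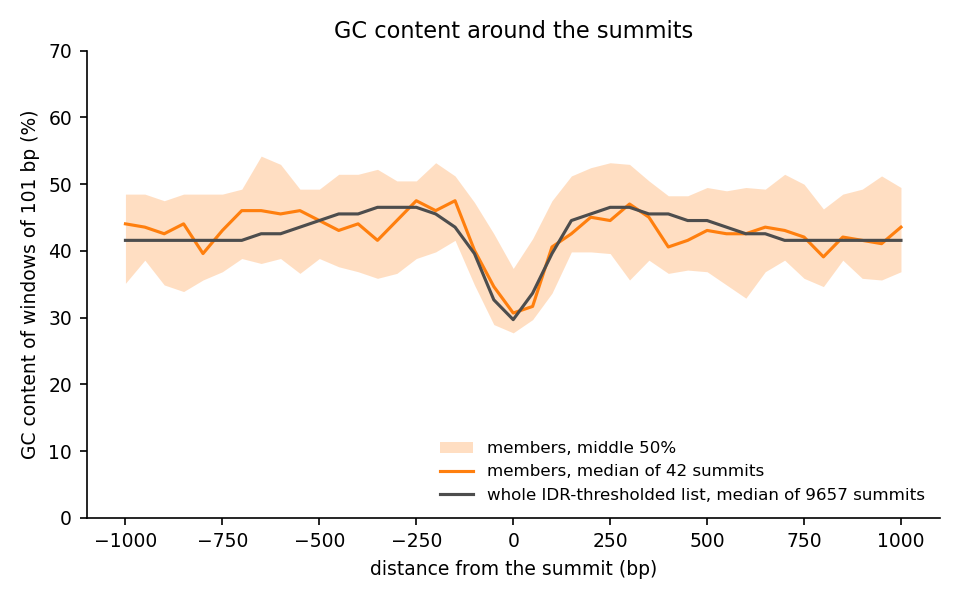
GC content within 50 bp of each position, by distance from the summit, as the median of the 42 member summits (orange, with the middle 50% shaded) and of the 9657 IDR-thresholded summits (grey). Both lines fall at the summit, to 30.7% for the members and 29.7% for the whole list.

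Of the 10 motifs searched on both strands within 50 bp of the summits, 9 had a share at the members whose interval held the share of the whole list. GAGAG, the core bound by GAF, was in 7 of 42 member windows (16.7%, exact 95% interval 6.97 to 31.4), beside 9.34% of all IDR-thresholded windows and 11.9% of windows 1000 bp away. TGATNNAT was in 5 (11.9%, 3.98 to 25.6), 4 of them at hth, beside 9.34% of all and 6.74% of side windows. TAATTA was in 4 (9.52%), beside 10.9% and 7.04%. TGACAG, the core of the Hth consensus, was in 2, both at hth (4.76%), beside 2.20% and 3.73%. The side shares given so far are those of the whole list. In the members' own side windows they were 7.14% for GAGAG, 10.7% for TGATNNAT, 10.7% for TAATTA and 7.14% for TGACAG. Against these, GAGAG was more common at the member summits, TGATNNAT was nearly level, and TAATTA and TGACAG were less common. GGTCACAC, the M1BP motif, was in 2 (4.76%, 0.582 to 16.2), beside 0.487% of all windows. This was the 1 motif whose interval lay above the share of the whole list, and it rests on 2 windows, 1 of them at hth. CGATA (BEAF-32) was in 2 and TGGGAA (Su(H)) in 1, below the 10.6% and 4.51% of all windows. TATCGATA (DREF), CATTCC (Scalloped) and CAGGTAG (Zelda) were in none of the 42. Every TATCGATA match also counts as a CGATA match. The 10 words of 8 bases that most favoured the summits of the whole list over their side windows, led by GTAATATA, were AT-rich, and at least 1 of them was in 4 of the 42 member windows (9.52%) and in 14.0% of all.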

How the data were processed

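Anti-GFP ChIP-seq peaks of 1 group, CG1663-eGFP whole pupae, were analysed from 2 biological replicates (numbered 1 and 3 in the labels). The authors called peaks for each replicate and for the pooled alignments against 1 control, on dm6, per the deposited README, and the IDR-thresholded list was derived from these. Not given in the sources used here are the IDR threshold, the read filters, and the caller and aligner with their versions. Columns 7, 9 and 10 of the deposited lists hold the signal, −log10 of the q-value and the summit offset, per the narrowPeak format. The deposited q-values are saturated, so peaks were ranked by signal, comparable within a list only. The IDR-thresholded peaks carry the authors' pooled signal. Depth is unknown, and the number of peaks does not measure precision, since summits of 1 gene are not independent of each other.

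Summits (peak start plus offset, counted from 1) were placed on Ensembl release 115 gene models (BDGP6.54) without transposable elements. A summit in a gene and its 10 kb flanks was given to the first of these classes that applied: within 500 bp of a start of the gene, exon, intron, flank. It was found in a replicate when a summit of that list lay within 100 bp. No test was run, since there was 1 group: counts, medians and ranks are set beside all protein-coding genes, and shares have exact (Clopper-Pearson) 95% intervals from scipy 1.17.1. Motifs were searched in the 101 bp around each summit and 1000 bp to each side. Counting was tested on simulated data. The members, the list of 50 genes and the motifs were chosen with earlier results of these data known. All 10 members were named, and of the 50 those with the 6 highest densities and the 4 highest start signals. The alternatives were other peak lists, flanks, start and motif windows, matching distances and rules for counting a summit. Leaving out hth, comparison with genes of similar length, the backgrounds on each replicate's strongest peaks and the settings for the list of 50 were chosen after seeing the data.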

Additional observations from a re-analysis of the deposited data

How the results depend on the processing

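The counts depend on which peaks and which windows are taken. The number of summits at the 10 genes, 42 as reported, was 39 to 44 with 1 replicate left out, 14 on the stronger 50% of peaks, 162 on the pooled list, 65 with flanks of 20 kb, 17 when the nearest start had to be the member's and 19 without hth. The members with a start summit, 1 as reported, were 1 to 3 with 1 replicate left out and 5 on the pooled list. On the pooled list 5066 of the 13945 protein-coding genes had one, so 5 of 10 members does not set them apart. Their median of 0.589 per 10 kb was 0.671 to 0.820 with 1 replicate left out, 0.313 on the stronger 50%, 2.30 on the pooled list, 0.757 with flanks of 20 kb and 0.209 by nearest start. The intronic share of 61.9% was 43.6 to 61.4% with 1 replicate left out, 40.0% with flanks of 20 kb and 26.3% without hth. The median percentile of 37.6 was 37.8 to 40.7 with 1 replicate left out, 49.4 on the stronger 50%, 43.7 on the pooled list, 33.6 by nearest start and 45.7 without hth. The 21 windows with any of the 10 motifs were 17 to 18 with 1 replicate left out, 34 at 100 bp to each side and 8 without hth. For the 50 other genes the median of 1.08 was 0.903 to 1.02 with 1 replicate left out, 0.427 on the stronger 50% and 3.44 on the pooled list. Longer lists, wider windows and fewer genes change these counts by construction; the cause of the differences between the replicates was not tested. The share of summits found in both replicates, 95.2%, ran from 85.7% at 50 bp to 97.6% by overlap. Of 58 such values 33 stayed close to the value reported, and of 70 for single genes and motifs 40 did. Close meant within 1.5 times for a count, and within the SD between replicates (n = 2) for a median or the intronic share. For the share found in both replicates it meant inside the exact 95% interval of that share. No paired analysis was possible because there is 1 group. Without read counts, a list cut at 30000 peaks cannot show whether sites below it are unbound.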
